A study of Mus musculus with 6 samples.

Results

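Sned1, Svep1, the fibulins (Fbln1, Fbln2, Fbln5, Efemp1, Efemp2), the fibrillins (Fbn1, Fbn2) and elastin (Eln) encode secreted proteins of the extracellular matrix, most of them built from chains of EGF-like modules. They were compared here between astrocytes of the cerebellum and of the neocortex of mice. The members are the probe sets whose gene symbol in the platform annotation, current or former, is 1 of these 10 genes. Of the 10, 8 had a named probe set, out of 18193 genes with a probe set in all, and they had 14 probe sets between them. The annotation used here named no probe set for Fbn1 and Efemp2, which were not analysed here.

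The study hybridised biotin-labelled amplified RNA from 3 neocortical and 3 cerebellar astrocyte samples, each on 1 array. The neocortical mice were of the ICR strain. The labels used here give no strain for the cerebellar samples, no age for either group, and no account of how the cells were obtained, so region and strain cannot be told apart if the strains differed. No genetic change or treatment is named for either group. Whether the 3 arrays of a region hold RNA of different animals or cultures is not given, so p-values measure the spread among these arrays alone, and that spread may be technical.

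Fibrillins are large glycoproteins that polymerise into microfibrils, the threads on which elastin is deposited to form elastic fibres, and microfibrils also hold latent TGF-beta and BMP growth factors. Fibulins bridge matrix components. Some are needed to assemble elastic fibres, and others sit mainly in basement membranes and bind fibronectin, laminins or the lectican proteoglycans of brain matrix. Sned1 and Svep1 are modular matrix proteins with sushi and EGF-like repeats, and Svep1, also called polydom, is a ligand of integrin alpha-9 beta-1.

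All signals below are quantile-normalized intensities in arbitrary units, and each gene is represented by its brightest probe set, the one with the highest mean over the 6 arrays, unless another is named. Levels of different genes cannot be compared on this scale. Differences are cerebellar minus neocortical, on the log2 scale, with the standard error (SE) of limma's moderated fit over the 27022 probe sets that passed a filter on dim values. The same fit gave 1319 probe sets higher and 1545 lower in cerebellar samples at an adjusted p threshold of 0.05, or 819 and 2105 when arrays were scaled by their median. The control probe sets of bacterial genes read up to 269.2 in the deposited values, and signals in that range are called dim.

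Astrocyte markers were above the dim range on all arrays. All 10 markers had a probe set, none was dim in either group, and their summed signal ran from 159200 to 229400 on cerebellar and from 220400 to 267200 on neocortical arrays. By limma's adjusted p, 1 of them (Aqp4) was higher and 3 (Slc1a3, Glul and Aldoc) were lower in cerebellar samples. Over all tested genes, 5.30% were higher and 7.36% lower. Slc1a3 passed by only 1 of its 6 tested probe sets, and none of them passed in the other direction. Markers of fibroblasts, including meningeal ones, were also present, with 13 of 13 measured, none at the floor on every array, and Slc6a13 alone dim in both groups. Their summed signal was 60620, 140200 and 247700 on cerebellar arrays 1, 2 and 3, and 110000, 89800 and 139000 on neocortical arrays 1, 2 and 3. Cerebellar array 1 was thus the lowest of the 6 and cerebellar array 3 the highest. Of 7 endothelial markers, Pecam1 was at the floor on every array, Flt1, Cldn5 and Emcn were dim, and 3 were tested. Of these, Kdr was lower in cerebellar samples (-1.56, limma adjusted p = 0.00304), and Cdh5 and Esam did not pass. The summed endothelial signal was 1420, 1987 and 2987 on cerebellar and 2403, 2478 and 3119 on neocortical arrays 1, 2 and 3. For the Gapdh control probe sets, the 3′ signal over the 5′ signal, which rises as RNA degrades, was 0.865 to 0.883 on neocortical and 0.913 to 1.07 on cerebellar arrays, with no overlap. The same ratio for actin was 1.35 to 1.44 and 1.42 to 1.62, with overlap, and the part of either in the results was not tested. In bulk samples, fewer cells of a type and less RNA per cell cannot be told apart.

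The members were chosen by family and with the regional log2 differences of these arrays, from the same fit, already known. The differences of its members are therefore a description, given with no test. By their brightest probe sets, 4 of the 8 measured members were past the threshold of the fit in the cerebellar direction and none in the other, where 5.30% of all 12616 tested genes were past it in the cerebellar and 7.36% in the neocortical direction. Nothing is read from that contrast between shares, because the same difference chose the members. The 4 were Sned1, Svep1, Fbln2 and Fbn2. In each of them all cerebellar arrays lay above all neocortical arrays. Eln had every cerebellar array below every neocortical one, and the groups overlapped for Fbln1, Fbln5 and Efemp1. Over all tested genes, 34.3% had groups that did not overlap, 16.0% with all cerebellar arrays above and 18.3% with all below.

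**Figure D1:**
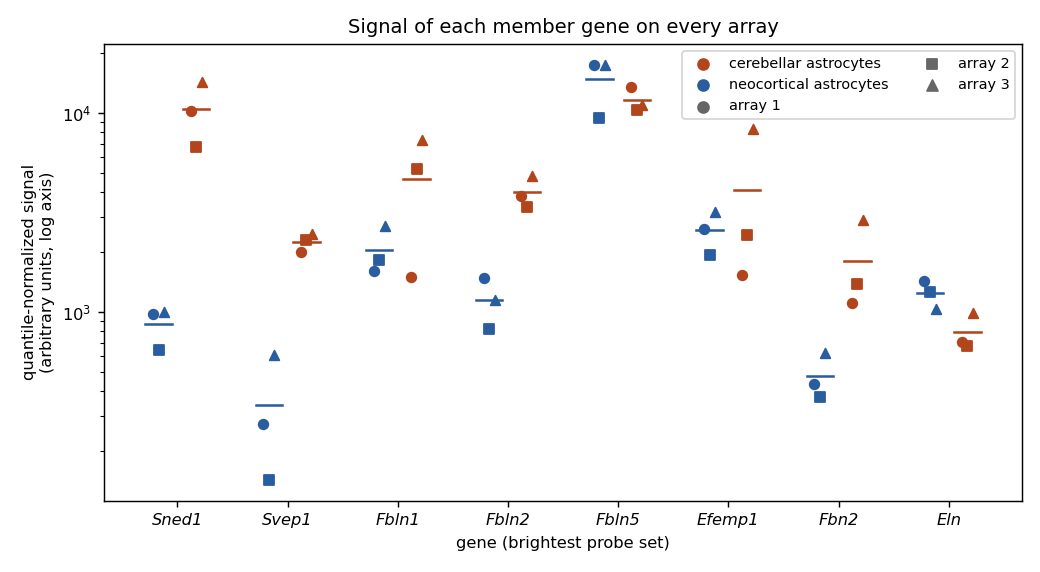
Signal of each of the 8 measured members on every array, as quantile-normalized signal in arbitrary units on a log axis, with 3 neocortical arrays in blue, 3 cerebellar arrays in orange-red, a marker shape for each array number and a short line at each group's mean. The groups are apart for Sned1, Svep1, Fbln2, Fbn2 and Eln, and overlap for Fbln1, Fbln5 and Efemp1.

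Sned1, a nidogen-domain matrix protein with EGF-like and fibronectin type III repeats, had the largest difference of the members. Its signal was 10200, 6750 and 14240 on cerebellar arrays 1, 2 and 3, and 970.5, 640.6 and 1000 on neocortical arrays 1, 2 and 3. The lowest cerebellar array was well above the highest neocortical one, and the arrays of a group stayed within 2.11-fold of each other in the cerebellum and 1.56-fold in the neocortex. The means were 10400 ± 3750 and 870.5 ± 200 (SD, n = 3 each), a difference of 3.54 ± 0.269 (SE), or 11.6-fold. It is represented by 1 probe set, so no other part of the transcript bears on this value.

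Svep1, the integrin ligand, followed with a different spread. Its signal was 2007, 2284 and 2462 on cerebellar arrays 1, 2 and 3, and 272.6, 142.7 and 608.7 on neocortical arrays 1, 2 and 3. The cerebellar arrays lay within 1.23-fold of each other, whereas the neocortical arrays spanned 4.26-fold, and array 2 read inside the dim range. The difference was 2.97 ± 0.436 (SE), or 7.81-fold (2251 ± 229 against 341.3 ± 240.0, SD, n = 3 each). The size of that fold rests on low neocortical values, and the log2 difference was 2.44 without neocortical array 2 and 3.51 without neocortical array 3. Svep1 also has 1 probe set.

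The promoters of Sned1 and Svep1 are shown because these members differ most between regions, and that of Fbln5 because its groups overlap. RefSeq (GRCm38.p6) promoter entries were found for 8 of the 10 genes, in a search that left out the entries of a chromosome. A gene not counted here may therefore have an entry. The stretches lie before the listed start of transcription, run 5′ to 3′ on the gene's strand, and stop where any annotated transcript of the gene begins. Capitals mark matches, on either strand, to 6 motifs, namely the TATA box TATAAA, the CCAAT box CCAAT, the GC box GGGCGG, the AP-1 site TGANTCA, the homeodomain core TAATTA and the Smad-type site CAGACA. No 2 matches overlap in these stretches.
Sned1, chr1:93235647-93235795, plus strand: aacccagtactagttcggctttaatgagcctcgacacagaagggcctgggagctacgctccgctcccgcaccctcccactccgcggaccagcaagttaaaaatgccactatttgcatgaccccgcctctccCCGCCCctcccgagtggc
Svep1, chr4:58206597-58206846, minus strand: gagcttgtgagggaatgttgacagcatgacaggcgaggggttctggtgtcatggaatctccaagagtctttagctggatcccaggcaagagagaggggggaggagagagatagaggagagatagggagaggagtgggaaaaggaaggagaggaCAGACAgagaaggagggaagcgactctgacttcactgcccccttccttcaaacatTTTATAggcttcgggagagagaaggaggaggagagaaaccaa
Fbln5, chr12:101819120-101819369, minus strand: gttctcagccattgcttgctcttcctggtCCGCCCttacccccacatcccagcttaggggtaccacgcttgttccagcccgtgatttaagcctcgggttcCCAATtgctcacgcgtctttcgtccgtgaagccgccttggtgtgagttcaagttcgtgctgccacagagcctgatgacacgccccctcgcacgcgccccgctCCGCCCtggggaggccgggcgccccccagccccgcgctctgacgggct

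The 149 bases of Sned1 hold 1 GC box, from 119 to 114 bases before the listed start, a motif found in 16.6% of all 32851 promoter entries over the same stretch. The 250 bases of Svep1 hold a TATA box read on the opposite strand, 42 to 37 bases before the start (12.4% of entries), and 1 Smad-type site 97 to 92 bases before it (17.1%). Those of Fbln5 hold 2 GC boxes, the nearer 48 to 43 bases before the start (32.7%), and 1 CCAAT box (33.8%). Each share counts the entries with at least 1 match at any position in the stretch. The 6 motifs gave Sned1 and Svep1 no match in common. The share of G and C was 61.1%, 52.4% and 65.2% in the stretches of Sned1, Svep1 and Fbln5, against medians over all entries of 51% for 149 and 52.4% for 250 bases. A match describes the letters and is not evidence that a factor binds.

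Fbln2 and Fbln1, the fibulins of basement membranes, differed in how steady they were. Fbln2 was 3832, 3359 and 4791 on cerebellar arrays 1, 2 and 3, and 1481, 819.0 and 1152 on neocortical arrays 1, 2 and 3. Every cerebellar array exceeded every neocortical one, by a difference of 1.82 ± 0.222 (SE), or 3.53-fold (3994 ± 729 against 1150.0 ± 331, SD, n = 3 each). A second Fbln2 probe set was dim in both groups, with means of 87.7 and 21.61, and was left out by the filter. With the mean of both probe sets, the log2 difference of Fbln2 was 1.21.

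Fbln1 was split among the cerebellar arrays. Its signal was 1495 on cerebellar array 1 but 5194 and 7311 on arrays 2 and 3, against 1611, 1824 and 2714 on neocortical arrays 1, 2 and 3. Cerebellar array 1 lay below every neocortical array and the other two above them all, so the groups overlapped. The difference was 0.94 ± 0.499 (SE), with a 95% interval from -0.18 to 2.07, and it was 1.63 without cerebellar array 1, where Fbln1 passed the threshold, and 0.48 without cerebellar array 3. A second Fbln1 probe set showed the same split, at 538.9, 2240.0 and 2514 on the cerebellar and 433.0, 462.3 and 771.2 on the neocortical arrays, with a difference of 1.43 ± 0.529 (SE). The remaining one was dim in both groups, with means of 132.8 and 126.5.

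Of the fibulins tied to elastic fibres, Fbln5, which binds both elastin and cell-surface integrins, had overlapping groups, all well above the dim range. Its signal was 13490, 10280 and 10960 on cerebellar arrays 1, 2 and 3, and 17440, 9377 and 17430 on neocortical arrays 1, 2 and 3. Neocortical array 2 was the lowest of all 6 and the other neocortical arrays were the highest. The difference was -0.30 ± 0.227 (SE), with a 95% interval from -0.82 to 0.21. Without neocortical array 2 it was -0.60 and passed the threshold, and without neocortical array 1 or 3 it was -0.15. The second Fbln5 probe set was dim in both groups.

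Efemp1, or fibulin-3, had the widest range among cerebellar arrays. It was 1529, 2435 and 8327 on cerebellar arrays 1, 2 and 3, and 2611, 1925 and 3183 on neocortical arrays 1, 2 and 3. Cerebellar array 1 was below every neocortical array and array 3 above them all, a 5.44-fold spread within the cerebellar group against 1.65-fold in the neocortical one. The difference was 0.32 ± 0.516 (SE), with a 95% interval from -0.85 to 1.49. Its sign rested on 1 array, since it was -0.39 without cerebellar array 3 and 0.84 without cerebellar array 1.

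Fbn2, the fibrillin best known from developing tissue, was 1108, 1380.0 and 2903 on cerebellar arrays 1, 2 and 3, and 435.4, 372.7 and 620.8 on neocortical arrays 1, 2 and 3. The groups did not overlap, and cerebellar array 3 stood well above the other two. The difference was 1.82 ± 0.349 (SE), or 3.53-fold, and it was 1.43 without cerebellar array 3. Its second probe set gave 975.6, 1037 and 2025 against 570.2, 395.5 and 678.5, a difference of 1.25 ± 0.312 (SE) that was also past the threshold. Fbn2 no longer passed without neocortical array 1 or 2, where its log2 difference was 1.76 and 1.65.

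Eln encodes tropoelastin, the soluble precursor of the elastic core. Its signal was 706.5, 676.2 and 985.8 on cerebellar arrays 1, 2 and 3, and 1421, 1261 and 1038 on neocortical arrays 1, 2 and 3. All cerebellar arrays lay below all neocortical ones, by a small margin between cerebellar array 3 and neocortical array 3. The difference was -0.66 ± 0.203 (SE), with a 95% interval from -1.12 to -0.20, and it did not pass the threshold adjusted over all probe sets. Without cerebellar array 3 it was -0.84 and passed, as it did at -0.75 with arrays scaled by their median, but with the mean of its probe sets it was -0.27 and did not. The other Eln probe set was dim in both groups, with means of 62.23 and 39.16. The member that forms the core of elastic fibres and the fibrillin Fbn2 therefore had differences of opposite sign.

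**Figure D2:**
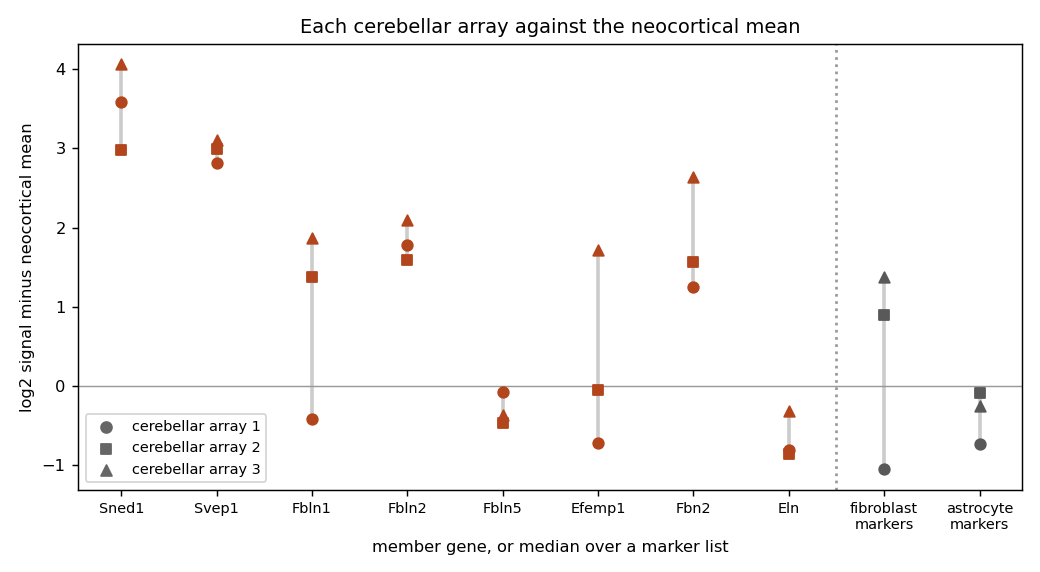
Log2 signal of each cerebellar array minus the neocortical mean, for the 8 members and, right of the dotted line, for the median gene of the fibroblast and astrocyte marker lists, with a marker shape for each array number. Svep1 and Fbln2 stay within 0.29 and 0.51 of each other across the 3 arrays, whereas Fbln1 and Efemp1 span 2.29 and 2.44. On array 1, Fbln1, Efemp1, Fbln5, Eln and the medians of both marker lists lie below 0.

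The members also differed in how they varied inside a region, which is separate from the regional difference. The SD of log2 signal within regions was 0.93 for Efemp1, 0.896 for Fbln1, 0.749 for Svep1 and 0.58 for Fbn2. It was 0.458 for Sned1, 0.393 for Fbln5, 0.354 for Fbln2 and 0.265 for Eln. All 8 were above 0.193, the median of the 12616 tested genes. Among cerebellar arrays, array 3 was the highest for 7 of the 8 members, which held for 28.9% of tested genes. Among neocortical arrays, array 2 was the lowest for 6 of the 8, which held for 35.6% of tested genes.

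Markers of some other cell types varied among the cerebellar arrays with some of the members, and those of others did not. Relative to the neocortical mean, the median log2 signal of the fibroblast markers was -1.05, 0.90 and 1.37 on cerebellar arrays 1, 2 and 3. The median of the 3 tested endothelial markers had the same order (-1.50, 0.09 and 1.12). By gene, Cdh5 had that order, but Kdr (370.8, 470.4 and 425.5) and Esam (373.8, 326.3 and 669.8) did not. The 8 microglia and macrophage markers were also lowest on array 1 (median -1.51, 0.82 and 0.19). So was the median of the 10 astrocyte markers (-0.73, -0.09 and -0.25). The medians of the 7 tested mural cell markers (0.03, -0.23 and -0.34) and 3 tested neuron markers (0.68, 0.23 and -0.55) had the reverse order. Those of the choroid plexus and ependymal markers were -1.47, -0.05 and -0.38, and of the oligodendrocyte markers 1.47, 1.59 and 1.20. The summed mural signal was 132500 to 169700 on cerebellar and 177800 to 208600 on neocortical arrays. Of all tested genes, 15% were lowest on array 1 and highest on array 3 of the cerebellar arrays. Fbln1 (-0.42, 1.38 and 1.87), Efemp1 (-0.72, -0.05 and 1.72) and Fbn2 (1.25, 1.57 and 2.64) were ordered as the medians of the fibroblast and endothelial markers were. So was Svep1, over a far narrower span (2.81, 2.99 and 3.10). Sned1, at 3.58, 2.98 and 4.06, and the remaining members were not. On cerebellar array 1, where the summed fibroblast signal of 60620 was below that of every neocortical array, Sned1, Svep1, Fbln2 and Fbn2 were still above every neocortical array, while Fbln1, Efemp1 and Eln were below every neocortical array. The fibroblast markers were themselves divided there, since Col1a1 (24160 against at most 17640) and Twist1 (1852 against at most 969.4) were above every neocortical array. Without that array the log2 differences of the first 4 were 3.52, 3.05, 1.84 and 2.10. Among the fibroblast markers, Twist1 was higher (difference 1.04, limma adjusted p = 0.00983) and Ogn lower (-2.44, limma adjusted p = 0.000442) in cerebellar samples. The other 11 did not pass, where 5.30% of all tested genes were higher and 7.36% lower. Beyond these values, the part of fibroblasts or of any other cell type in the members' differences was not tested.

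Proteins that work with the members in microfibrils and elastic fibres differed in both directions. Of 22 listed genes, 20 had a probe set and 18 were tested. A total of 3 were higher and 1 lower in cerebellar samples by limma's adjusted p, against 5.30% and 7.36% of all tested genes. With arrays scaled by their median, 3 were higher and 3 lower. The median log2 difference was 0.08 against -0.01 over all tested genes. None of the 3 tested lysyl oxidases (Lox, Loxl1 and Loxl3), which cross-link elastin, passed. Lox itself was 4858, 6804 and 26090 on cerebellar arrays 1, 2 and 3, and 4708, 4143 and 8619 on neocortical arrays 1, 2 and 3 (difference 0.79 ± 0.546, SE), the array order seen for Fbln1 and Efemp1.

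Hmcn1, or fibulin-6, had the largest difference of these partners. It was 1310, 729.7 and 989.2 on cerebellar and 371.6, 268.8 and 557.9 on neocortical arrays, with no overlap (difference 1.36 ± 0.313, SE, limma adjusted p = 0.0267). Adamtsl3, an ADAMTS-like matrix glycoprotein, was 9275, 5342 and 5511 against 2649, 2825 and 2734 (1.25 ± 0.196, adjusted p = 0.00516 by limma). The cerebellar arrays of Adamtsl3 were well apart from a tight neocortical group. Emilin1, a glycoprotein at the interface of elastin and microfibrils, was higher by 0.84 ± 0.227 (limma adjusted p = 0.0482), and Fbln7, a further fibulin, was lower (-0.84 ± 0.213, limma adjusted p = 0.0383), both without overlap between the groups. Hmcn1 lost its call in 6, Emilin1 in 7 and Fbln7 in 8 of 16 alternative settings, and Adamtsl3 lost it in 1. Without neocortical array 1 or 2 or cerebellar array 3 only 1 gene of the list passed, and without cerebellar array 2 it was 2.

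The latent TGF-beta binding proteins, close relatives of the fibrillins, did not pass as fitted. The nearest was Ltbp3, which had the smallest adjusted p of the 4, at -0.40 ± 0.109 (SE, limma adjusted p = 0.0512), with signals of 21210, 18330 and 20170 on cerebellar and 25040, 30410 and 23470 on neocortical arrays. All cerebellar arrays of Ltbp3 were lower than all neocortical ones. It passed in 3 of the alternative settings by limma, with adjusted p = 0.0438 when arrays were scaled by their median (-0.59), 0.048 with a floor raised to the 40th and 0.0463 with a filter raised to the 60th percentile. Ltbp1 was 703.4 on cerebellar array 1 but 166.4 and 194.2 on arrays 2 and 3, the reverse of the split in Fbln1. Without cerebellar array 1 its difference was -1.44 (limma adjusted p = 0.0171). Mfap2, a further gene of the list, had a difference of -0.07 ± 0.194 (SE) by its brightest probe set and did not pass. With the mean of its probe sets it was lower (-0.92, limma adjusted p = 0.0142). Ltbp3, Ltbp1, Lox and Mfap2 were picked out after their values were seen.

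**Figure D3:**
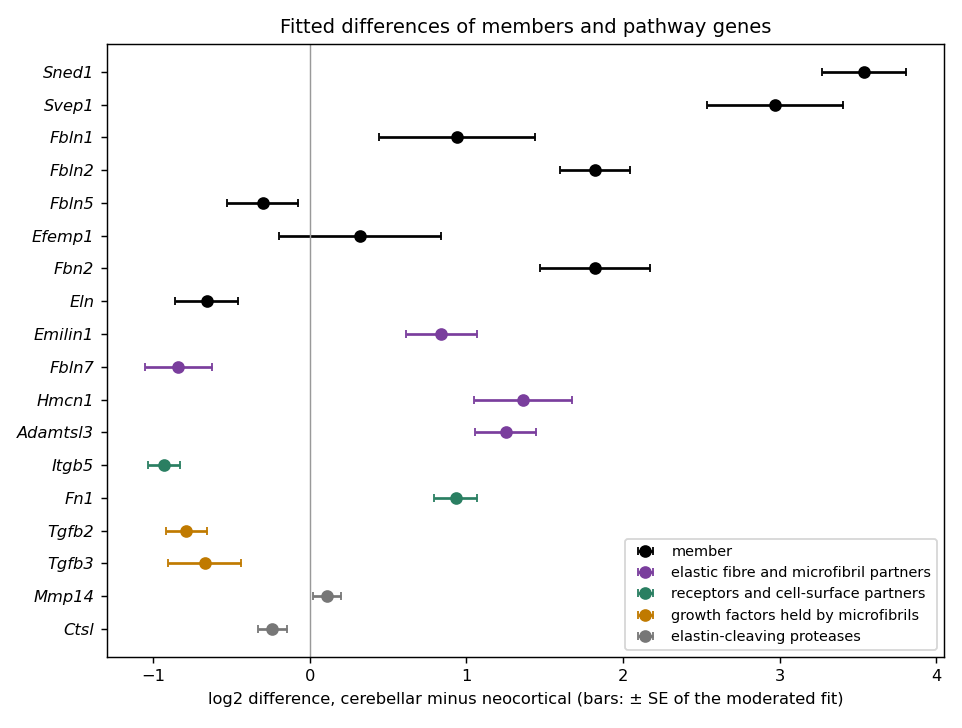
Fitted log2 differences, cerebellar minus neocortical, of the 8 measured members (black) and of 10 genes of the pathway lists (coloured by list), with bars of 1 SE either side. Sned1 and Svep1 lie furthest to the right at 3.54 and 2.97, and no pathway gene shown exceeds the 1.36 of Hmcn1.

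Among receptors and cell-surface partners, all 13 listed genes had a probe set and 10 were tested. Of these, 1 was higher and 1 lower, against 5.30% and 7.36% of all tested genes. The median log2 difference was 0.13. Fn1, the fibronectin on which fibulins and microfibrils are laid down, was 60270, 56510 and 61330 on cerebellar and 32490, 24850 and 37610 on neocortical arrays. The groups were well apart (0.93 ± 0.135, SE, limma adjusted p = 0.00344), and both tested probe sets passed. Itgb5, the beta-5 chain that pairs with alpha-v to bind RGD sequences, was 6640, 7512 and 6562 against 14290, 11830 and 13370 (-0.93 ± 0.103, SE, limma adjusted p = 0.000911), with 4 of 4 probe sets lower. Itga9, a chain of the Svep1 receptor, was 627.2, 630.6 and 540.9 on cerebellar and 542.2, 437.8 and 682.9 on neocortical arrays and did not pass. Tie1, a further receptor linked to Svep1, was at the floor on all 6 arrays.

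With the replicate number as a block, 3 receptors and partners were higher and 1 lower. The additional genes, named after their values were seen, were Pear1 (1.15 ± 0.268, SE, limma adjusted p = 0.0286) and Itga5 (0.70 ± 0.186, SE, limma adjusted p = 0.0453). Pear1 is a membrane protein with EGF-like repeats, and Itga5 is the alpha chain of the main fibronectin receptor. Without the block their adjusted p values by limma were 0.12 and 0.0809.

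Growth factors that microfibrils hold in latent form showed 1 gene lower and none higher of 6 tested, with a median log2 difference of -0.45. Over all tested genes, 7.36% were lower and 5.30% higher. Tgfb2 was 2567, 2206 and 2344 on cerebellar and 4516, 3541 and 4291 on neocortical arrays, with no overlap (-0.79 ± 0.130, SE, limma adjusted p = 0.00628) and 3 of 4 probe sets lower. Tgfb3 had a difference of -0.67 ± 0.233 (SE) and did not pass, but passed at -0.94 without cerebellar array 1, and was -0.47 without cerebellar array 3. Of the 5 tested proteases that cleave elastin, none passed by limma's adjusted p, with 1 at an unadjusted p under 0.05, and 1 passed without cerebellar array 1. The rule for named genes gave Ctsl, a lysosomal cathepsin (difference -0.24 ± 0.0941, SE), and Mmp14, a membrane-bound metalloproteinase (0.11 ± 0.0895, SE, but -0.10 with arrays scaled by their median).

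The genes most like Sned1 and Svep1 across the 6 arrays were found by Pearson correlation of log2 signal among 12357 tested genes with no array at the floor. Ist1, Cog1 and Tns2 were nearest to Sned1 (r = 0.998 each). Their mean signals were 9811 against 7548, 3781 against 2979 and 874.0 against 307.5 in cerebellar and neocortical samples. Ap2m1, Pank4 and Fn1 were nearest to Svep1 (r = 0.993, 0.993 and 0.992), with 13740 against 11320, 1987 against 1568 and 59370 against 31650. These correlations are over 6 arrays that fall into the regional groups, so they mostly restate the regional difference. Tns2 was 2.84-fold and Fn1 1.90-fold higher in cerebellar samples, while the others differed by at most 1.30-fold, far less than the 11.6-fold and 7.81-fold of Sned1 and Svep1.

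**Figure D4:**
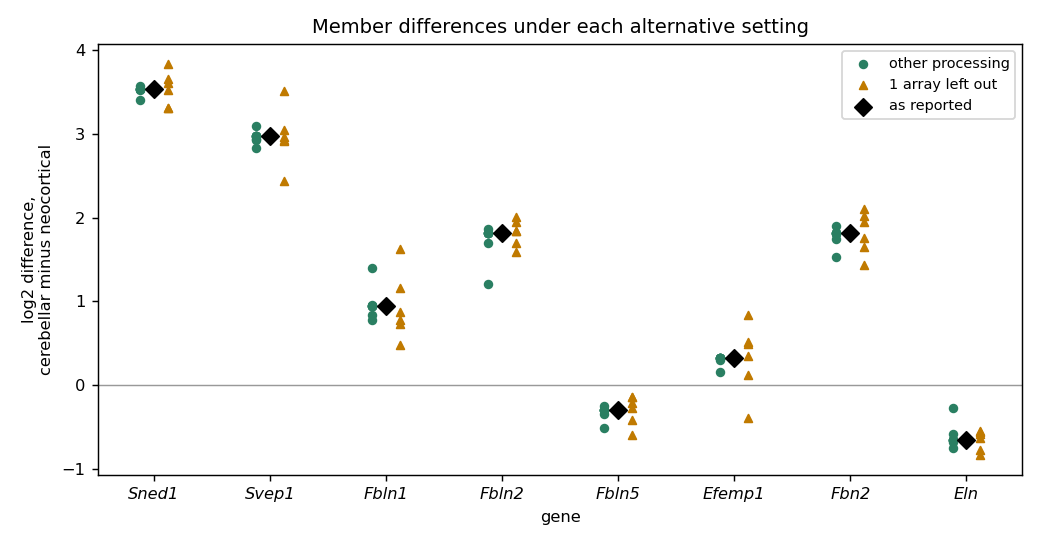
Log2 difference of each measured member, cerebellar minus neocortical, as reported (black diamonds), under other processing of the same arrays (green circles) and with 1 array left out (orange triangles). Sned1 stays between 3.31 and 3.84, and Efemp1 crosses 0, from -0.39 to 0.84.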

How the data were processed

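The authors deposited linear intensities, 1 for each probe set on each array, in a table of arbitrary units. No source used here gives the summarisation method or software. The trimmed mean (2% at each end) was 1500 on every array, and array medians ran from 284.7 to 361.2. Control probe sets were set aside, and the other 45037 were quantile normalized, raised to a floor of 62.16 (the 20th percentile) and log2-transformed. The 27022 at or above the 40th percentile of mean signal were fitted with limma 3.58.1 in R 4.3.3 (variance trend, two-sided, Benjamini-Hochberg over all of them). This was tested on simulated data, drawn with independent noise and with no floor or pairing. Symbols came from the platform annotation, updated by Entrez ID for 34741 of 34945 probe sets with 1 symbol, while 932 had several and 9160 none. Precision is limited by having 3 arrays in each region.

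The members and gene lists were chosen with earlier results of these data known. The rule for named genes took all members, every pathway gene past the threshold, the 2 brightest of a list where fewer than 2 passed, and the 3 profiles nearest to Sned1 and to Svep1.

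The groups share replicate numbers 1 to 3 in the labels. After subtracting group means, arrays that share a number correlated across probe sets (r = 0.18, 0.188 and 0.101). All were over 0.1, the cut-off used here, though the last only just, so the numbers may pair the arrays. No label says so. The main fit used no pairing, and a fit with the replicate block was run as an alternative. Other alternatives changed the normalization, floor, filter, trend, probe set choice or arrays.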

Additional observations from a re-analysis of the deposited data

How the results depend on the processing

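The 8 members kept the sign of their difference in every setting run, except Efemp1, which ran from -0.39 without cerebellar replicate 3 to 0.84 without cerebellar replicate 1. Sned1 kept its call in all 16 settings and Fbln2 in all 15 in which it was tested. Svep1 lost its call with no filter, and Fbn2 did so with no filter, with no variance trend and without neocortical replicate 1 or 2. With no filter on dim probe sets, 1281 probe sets, 2 members, 0 elastic fibre partners and 1 receptor or partner passed by limma, against 2864, 4, 4 and 2. With no variance trend the counts were 1590 probe sets and 1 elastic fibre partner. The replicate block gave 4 receptors and partners and 3342 probe sets, and changed the count of no other list. Leaving out 1 array gave 1201 to 2784 probe sets, 3 to 5 members, 1 to 4 elastic fibre partners, 2 to 3 receptors and partners, 1 to 2 growth factors and 0 to 1 protease. Mmp14 turned to -0.10 with arrays scaled by their median, which moved the median of all genes from -0.0148 to -0.144, and the log2 difference of Fn1 rose from 0.93 to 1.48 with the mean of its probe sets. The cause of these changes was not tested. Low signal limits Svep1, whose neocortical arrays reached into the dim range.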
